A study of Homo sapiens with 5 samples.

Results

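The regions described here are the H3K4me1 and H3K27ac peaks of chromosome 16 in VCaP cells, divided into short and long arm. VCaP is an established line from a human prostate cancer. All intervals on chromosome 16 in the 4 deposited peak lists were taken, 7995 of 363159 on the autosomes and chromosome X (2.20%). H3K4me1 replicates 1 and 2 contributed 2187 and 2409 peaks, or 1.85 and 1.92% of each list, and H3K27ac replicates 1 and 2 contributed 1539 and 1860 peaks, or 2.81 and 2.87%. Cells were grown in medium with serum, and no treatment, genotype change or time point is named in the labels. Chromatin was precipitated with the abcam antibodies ab8895 for H3K4me1 and ab4729 for H3K27ac. The groups are the 2 H3K4me1 libraries, the 2 H3K27ac libraries and 1 input library, which is not analysed here. Chromosome 16 was chosen by a measured value, the low share of its H3K27ac regions that carry H3K4me1 in these same lists, so its distance from other chromosomes in that share is a description and carries no test.

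H3K4me1 is laid down at enhancers, whether active or primed, and on the shoulders of promoters. H3K27ac is placed by acetyltransferases at enhancers and promoters in use, so a site with both marks is usually read as an active enhancer or promoter flank and one with H3K4me1 alone as a primed enhancer. Chromosome 16 has a gene-dense short-arm end, where the alpha-globin genes lie, a large block of satellite heterochromatin beside the centromere on the long arm, and a long arm that holds the metallothionein genes and the E-cadherin gene CDH1. Loss of the long arm is known in prostate cancer. DNA copy number of the arms is not analysed here. The lists give positions in hg19 without peak height, and read depth is unknown. The gene table at hand has another build, so regions are named by coordinate.

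Between the arms lay 13.3 Mb with no peak of any library. The last short-arm peak ended at position 33402318 and the first long-arm peak began at 46654628, and no peak lay between them, so each peak belonged to 1 arm and none was left out. Peaks spanned 33.3 Mb on the short arm and 43.6 Mb on the long arm. Merging overlapping peaks of both libraries of a mark, and keeping merged regions that held a peak of each, gave 749 replicated H3K4me1 regions on the short arm and 781 on the long arm. For H3K27ac there were 709 on the short arm and 657 on the long arm.

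Both marks were denser on the short arm, and H3K27ac more so. H3K4me1 replicate 1 had 31.7 peaks per Mb on the short arm and 25.9 on the long arm, a ratio of 1.22. H3K4me1 replicate 2 had 33.9 on the short arm and 29.3 on the long arm, a ratio of 1.15. H3K27ac replicate 1 had 23.7 on the short arm and 17.1 on the long arm, a ratio of 1.38. H3K27ac replicate 2 had 29.0 on the short arm and 20.4 on the long arm, a ratio of 1.42. The ratios did not overlap between the marks. On the log2 scale the short-to-long ratio averaged 0.25 ± 0.06 for H3K4me1 and 0.49 ± 0.03 for H3K27ac (SD, n = 2 each). The difference of -0.24 exceeded the spread between replicates. By exact permutation (two-sided) p was 0.333, which 2 libraries against 2 cannot go below, and 0.5 after Benjamini-Hochberg adjustment over 3 arm comparisons. With equal numbers of the widest peaks per list the difference shrank to -0.08 (exact p = 0.667), and with peaks of at least 500 bp to -0.15.

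The long arm holds a second large stretch without peaks, of 6.27 Mb from 59501112 to 65768406. Without it, a choice made after seeing the data, the H3K4me1 density was close on both arms, with short-to-long ratios of 1.05 and 0.988 in replicates 1 and 2. H3K27ac remained denser on the short arm in both libraries, with ratios of 1.18 and 1.22. These ratios come from trimming the long arm alone, while the short arm kept its own largest stretches without peaks, of 1.89 and 1.51 Mb. The near equality of H3K4me1 thus holds for this choice only. Removing the long-arm stretch shifts every library alike, so the difference between marks is the same by construction. In single libraries the stretch measured 6.91 and 6.28 Mb for H3K4me1 and 6.93 Mb in both H3K27ac lists. The widest gap, around the centromere, was 13.3 Mb in both H3K4me1 lists and 14.8 Mb in both H3K27ac lists. H3K27ac ended earlier on the short arm, at 31886160. Beyond it lay 3 and 1 peaks of H3K4me1 replicates 1 and 2.

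Short-arm peaks were slightly wider and had slightly higher recurrence between replicates. Median peak width was 417 bp on the short and 370.5 bp on the long arm in H3K4me1 replicate 1, and 549 and 511.5 bp in replicate 2. It was 975 bp on the short and 835.5 bp on the long arm in H3K27ac replicate 1, and 678.5 and 627.5 bp in replicate 2. All 4 libraries thus had the wider median on the short arm, by ratios from 1.07 to 1.17. The log2 width ratio averaged 0.14 ± 0.05 for H3K4me1 and 0.17 ± 0.08 for H3K27ac (SD, n = 2 each). Their difference of -0.03 was within the spread between replicates (exact permutation p = 0.667, adjusted 0.667). It changed sign without H3K27ac replicate 1 (0.02) and without H3K4me1 replicate 2 (0.0028).

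Recurrence is the percentage of peaks that overlap a peak of the mark's other library. For H3K4me1 it was 82.2% on the short and 79.2% on the long arm in replicate 1, and 67.6 and 62.3% in replicate 2. For H3K27ac it was 92.0% on the short and 90.8% on the long arm in replicate 1, and 85.8 and 85.3% in replicate 2. The short-minus-long difference in recurrence was 4.16 ± 1.63 points for H3K4me1 and 0.897 ± 0.514 points for H3K27ac (SD, n = 2 each), a gap of 3.27 points. By exact permutation p was 0.333, the smallest possible, and 0.5 after adjustment. Both values of a mark come from 1 overlap of the same 2 lists, counted from each side. They are thus not independent, and their SD and p do not measure the spread between replicates. With the recurrence of H3K4me1 replicate 1 alone, which still counts overlap with peaks of replicate 2, the gap was 2.11 points. On other chromosomes 88.5 and 68.8% of H3K4me1 peaks recurred. H3K4me1 recurrence was thus lower on the long arm of chromosome 16 in each library, and on the short arm in replicate 1. In replicate 2 the short-arm interval included the value elsewhere, and the short arm ranked 17 from the lowest of 41 arms. In H3K4me1 replicates 1 and 2 recurrence was 76.2 and 56.8% on the long arm of chromosome X. It was 76.3 and 62.5% on the short arm of chromosome X, and 82.4 and 69.3% on the short arm of chromosome 19. H3K27ac recurrence of replicate 1 was higher on both arms than the 87.8% found elsewhere. That of replicate 2 was slightly lower than the 86.1% elsewhere, a value that the intervals of both arms include.

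**Figure D1:**
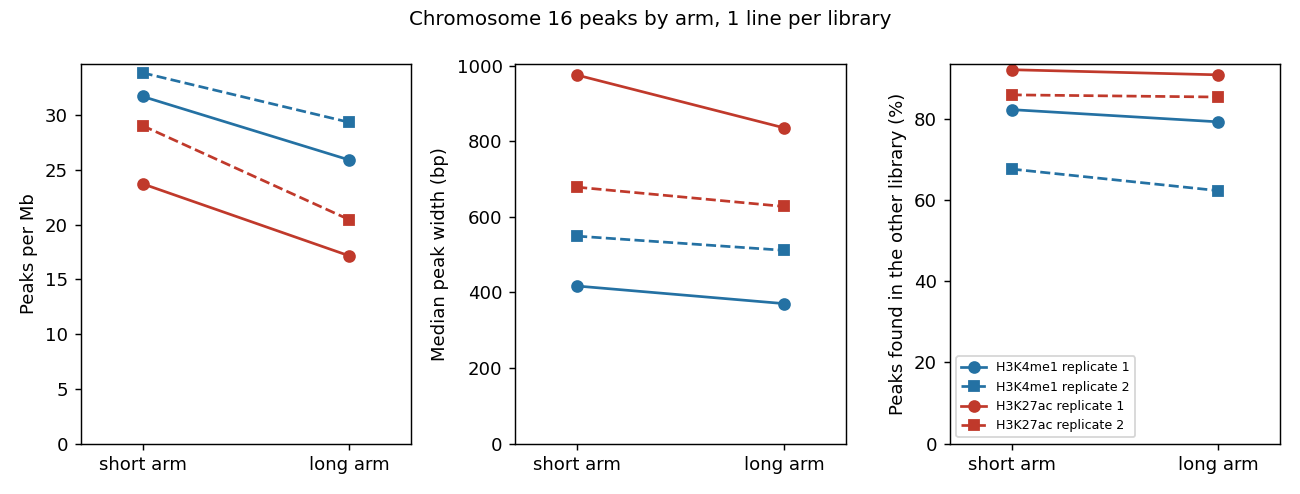
Peaks per Mb, median peak width in bp and the percentage of peaks found in the mark's other library, for the short and long arm of chromosome 16, with 1 line per library. All 12 lines slope down from short to long arm, and the H3K27ac density lines (ratios 1.38 and 1.42) are steeper than those of H3K4me1 (1.22 and 1.15).

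H3K4me1 was missing from many H3K27ac regions of both arms, to a similar extent. A replicated H3K4me1 region overlapped 368 of 709 H3K27ac regions on the short arm, or 51.9% (95% exact interval 48.2 to 55.6%), and 326 of 657 on the long arm, or 49.6% (45.7 to 53.5%). Over all chromosomes the share was 73.5%, a value that belongs to the choice of chromosome 16. The short-minus-long difference was 2.28 points, with an interval of -3.01 to 7.57 points that includes 0. Intervals cover counting error over regions, not the spread between libraries. Counted on peaks of H3K4me1 replicate 1 alone the shares were 52.5% on the short and 52.97% on the long arm, and on those of replicate 2 alone 60.8 and 56.6%. The sign of the difference thus depended on the H3K4me1 library, with -0.500 points for replicate 1 and 4.17 for replicate 2.

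The reverse share differed between the arms. Of short-arm H3K4me1 regions, 441 of 749 (58.9%, 55.3 to 62.4%) overlapped an H3K27ac region, against 387 of 781 (49.6%, 46.0 to 53.1%) on the long arm, beside 47.1% over all chromosomes. The difference was 9.33 points (4.33 to 14.3), and it was 9.19 and 9.09 points when counted on peaks of H3K27ac replicates 1 and 2 alone. It was 8.56 points after the short arm was weighted to the width classes of the long arm. Using the equal numbers of widest peaks, the interval reached below 0 (6.29 points, -1.71 to 14.2). In every pairing of single libraries the short arm was higher. H3K4me1 replicate 1 had 49.95 and 50.5% of its short-arm peaks on peaks of H3K27ac replicates 1 and 2, against 43.9 and 44.4% of its long-arm peaks. H3K4me1 replicate 2 had 50.3 and 50.2% on the short arm, against 37.6 and 39.1% on the long arm.

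The short arm had fewer H3K4me1 regions per H3K27ac region. The ratio was 1.06 on the short arm and 1.19 on the long arm, which gives a short-to-long quotient of 0.889. Peaks of single libraries gave quotients of 0.885, 0.862, 0.834 and 0.813 in the 4 pairings, each below 1. Arm length cancels in these quotients, so they restate the arm density ratios of the marks and are no separate result. With equal numbers of widest peaks the quotient was 0.987, close to equality. The other chromosomes together had 1.82 H3K4me1 regions per H3K27ac region.

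Many regions lay apart from the other mark altogether. On the short arm 260 H3K27ac regions (36.7%, 33.1 to 40.3%) touched no H3K4me1 peak of either library, against 252 on the long arm (38.4%, 34.6 to 42.2%). The share over all chromosomes was 16.7%, a distance that belongs to the choice of chromosome 16. These solitary H3K27ac regions were a median of 3.19 kb from the nearest H3K4me1 peak on the short arm and 5.58 kb on the long arm, and 58.1% of the short-arm and 46.8% of the long-arm ones had such a peak within 5 kb. On other chromosomes the median distance was 2.45 kb and 59.3% had one within 5 kb, a share close to that of the short arm. A further 81 short-arm and 79 long-arm H3K27ac regions touched an H3K4me1 peak only outside the replicated regions. H3K4me1 regions with no H3K27ac peak of either library numbered 246 on the short arm (32.8%) and 331 on the long arm (42.4%), beside 44.9% over all chromosomes.

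Chromosome 16 had lower H3K4me1 shares in each class of H3K27ac region width. A lower level follows from its choice by this share, so the classes show only how that level was spread over widths. Regions were put into 5 classes with limits set over all chromosomes. From the narrowest class up, H3K4me1 lay on 49.2, 44.7, 46.4, 50.7 and 69.6% of H3K27ac regions on the short arm and on 43.3, 54.5, 42.6, 52.5 and 58.1% on the long arm. On the other chromosomes the percentages were 68.4, 69.8, 71.9, 75.3 and 85.3%. The widest class stood highest on both arms, while the other 4 classes kept no order, and the intervals of the arms overlapped in every class. H3K4me1 regions showed a gradient on both arms. Their share with H3K27ac was 39.1, 55.7, 62.0, 65.8 and 92.3% on the short arm and 30.4, 45.8, 55.3, 58.6 and 83.8% on the long arm. On the other chromosomes it was 28.2, 36.6, 42.4, 51.1 and 76.0%.

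Replicated H3K4me1 regions were narrower on both arms of chromosome 16 than elsewhere, and replicated H3K27ac regions on the long arm alone. The median width of replicated H3K4me1 regions was 800 bp on the short arm and 764 bp on the long arm, against 947 bp on other chromosomes. This was not particular to chromosome 16. The long and short arms of chromosome X had 764 and 712 bp, and the short arm of chromosome 19 had 830 bp. The median width of replicated H3K27ac regions was 1245 bp on the short and 1107 bp on the long arm, against 1219 bp elsewhere. In single libraries, long-arm H3K27ac peaks were narrower than elsewhere in replicate 1 (835.5 against 902 bp) but not in replicate 2 (627.5 against 622 bp). The widest class made up 12.1% of H3K4me1 regions on the short arm and 10.2% on the long arm, against 20.2% elsewhere. In H3K4me1 replicate 1 alone, peaks had median widths of 417 bp on the short and 370.5 bp on the long arm, against 449 bp elsewhere. In replicate 2 alone they had 549 bp on the short and 511.5 bp on the long arm, against 653 bp elsewhere. The part of narrow and sparse H3K4me1 peaks in the low share of H3K27ac regions with H3K4me1 was not tested.

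Wide H3K27ac regions of both arms carried H3K4me1 mostly at their ends. In the widest 2 of 5 classes, H3K4me1 covered the middle of 16.5% of the 278 short-arm regions and 19.6% of the 225 long-arm regions. At 0.75 of the way from the middle to either end it covered 35.4% on the short and 37.6% on the long arm. On the other chromosomes the values were 37.7% in the middle and 57.1% at the outer position. The dip was 18.9 points deep on the short arm and 19.4 on the other chromosomes, and that of the long arm was less than 1 point shallower than on the short arm. The profile on chromosome 16 thus lay lower, as its choice by a low share implies, with a dip of similar depth in points. Relative to the outer position the dip was deeper. The middle stood at 0.467 of the outer value on the short and 0.521 on the long arm, against 0.660 elsewhere. With H3K4me1 replicate 1 alone these were 0.405, 0.437 and 0.566, and with replicate 2 alone 0.427, 0.517 and 0.629. Single H3K4me1 libraries gave dips of 16.4 and 21.8 points on the short arm and 17.8 and 18.7 on the long arm. H3K4me1 throughout, at the middle and both outer positions, was found in 25 regions on the short arm (8.99%) and 32 on the long arm (14.2%), against 30.2% elsewhere. H3K4me1 on 1 side only was found in 66 (23.7%) on the short and 38 (16.9%) on the long arm, against 20.8% elsewhere. Neither the middle nor the ends were covered in 48.9% of the short-arm and 51.1% of the long-arm regions, against 28.3% elsewhere.

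**Figure D2:**
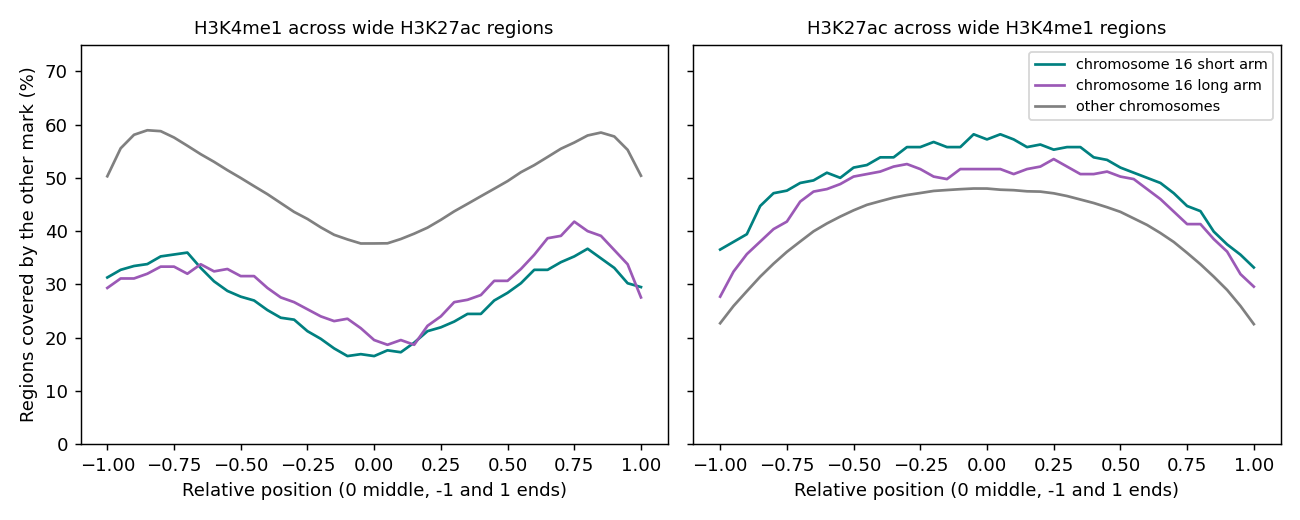
Percentage of wide regions (widest 2 of 5 classes) covered by the other mark against relative position, with the middle at 0 and the ends at -1 and 1, for the short arm, the long arm and the other chromosomes. H3K4me1 dips in the middle of wide H3K27ac regions to 16.5% on the short and 19.6% on the long arm, against 37.7% elsewhere. H3K27ac over wide H3K4me1 regions covers more in the middle (57.2, 51.6 and 47.99%) than at the 0.75 position (46.2, 41.5 and 36.01%).

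All 15 windows of 5 Mb with at least 20 H3K27ac regions had a share of H3K27ac regions with H3K4me1 under the median of such windows over all chromosomes, 73.9%. Chromosome 16 was chosen by a low value of this share, so the window counts below largely restate that choice and carry no test. The lowest window had 20.9%, the median window 55.4% and the highest 70.3%. Medians were 51.1% over 7 short-arm windows and 55.7% over 8 long-arm windows. In 6 of the 15 windows, 3 on each arm, under 50% of H3K27ac regions carried H3K4me1. Over all chromosomes 6.95% of windows fell under that limit, which was chosen after seeing the data. Counted on peaks of H3K4me1 replicates 1 and 2 alone, 5 and 3 windows of chromosome 16 did so. H3K27ac regions outnumbered H3K4me1 regions in 4 of the 15 windows, and in 4.39% of windows over all chromosomes.

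The first window of the short arm, from 0 to 5 Mb, was the densest, with 204 H3K4me1 and 242 H3K27ac regions. H3K4me1 replicates 1 and 2 had 285 and 315 peaks there and H3K27ac replicates 1 and 2 had 258 and 321. H3K4me1 lay on 47.5% of its H3K27ac regions (41.1 to 54.0%). The window from 5 to 10 Mb was sparse, with 37 H3K4me1 and 27 H3K27ac regions and a share of 40.7% (22.4 to 61.2%). It also holds the third largest peak-free stretch, of 1.89 Mb from 6656259 to 8545972. The interior windows had shares of 61.3% (10 to 15 Mb), 60.2% (15 to 20 Mb) and 70.3% (20 to 25 Mb), followed by 51.1% from 25 to 30 Mb.

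The window next to the centromere on the short arm had fewer H3K4me1 than H3K27ac regions, and only part of it held peaks. Beyond 31886160 lay no H3K27ac peak and only 3 and 1 peaks of H3K4me1 replicates 1 and 2. From 30 to 31 Mb, H3K4me1 replicates 1 and 2 had 46 and 55 peaks, above the arm's 31.7 and 33.9 per Mb. H3K27ac replicates 1 and 2 had 64 and 79, against the arm's 23.7 and 29.0. From 31 to 32 Mb, each H3K4me1 library had 11. Whole-window counts thus do not give density. From 30 to 35 Mb, H3K4me1 replicates 1 and 2 had 59 and 67 peaks, against 140 and 154 in the window from 25 to 30 Mb. H3K27ac replicates 1 and 2 had 88 and 107 peaks, against 102 and 117 before it. Both H3K4me1 libraries thus dropped by a larger fraction than both H3K27ac libraries. The window held 39 H3K4me1 and 85 H3K27ac regions, and 30.6% of the H3K27ac regions carried H3K4me1 (21.05 to 41.5%). Replicates 1 and 2 of H3K4me1 alone gave 35.3 and 41.2%. Conversely, 69.2% of its H3K4me1 regions overlapped H3K27ac, the highest value of the 15 windows.

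On the long arm the shares were 39.5% from 45 to 50 Mb (38 H3K27ac regions), 60.9% from 50 to 55 Mb and 47.0% from 55 to 60 Mb. No peak of any library lay from 60 to 65 Mb. The windows from 65 to 85 Mb were even, with 57.3, 55.4, 57.1 and 56.0%. The last full window, from 85 to 90 Mb, had 20.9% (12.9 to 31.0%) of 86 H3K27ac regions on H3K4me1, the lowest on the chromosome. Its neighbour from 80 to 85 Mb had 56.0% (44.1 to 67.5%) of 75. H3K4me1 replicates 1 and 2 had 89 and 111 peaks in the last window, against 138 and 174 in its neighbour, while H3K27ac replicates 1 and 2 had 100 and 123, against 82 and 103. The marks thus moved in opposite directions between these neighbours in all 4 libraries. Across the 15 windows the shares from single H3K4me1 libraries ranked alike (Spearman's rho 0.87, a description, since the shares use the same H3K27ac regions).

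**Figure D3:**
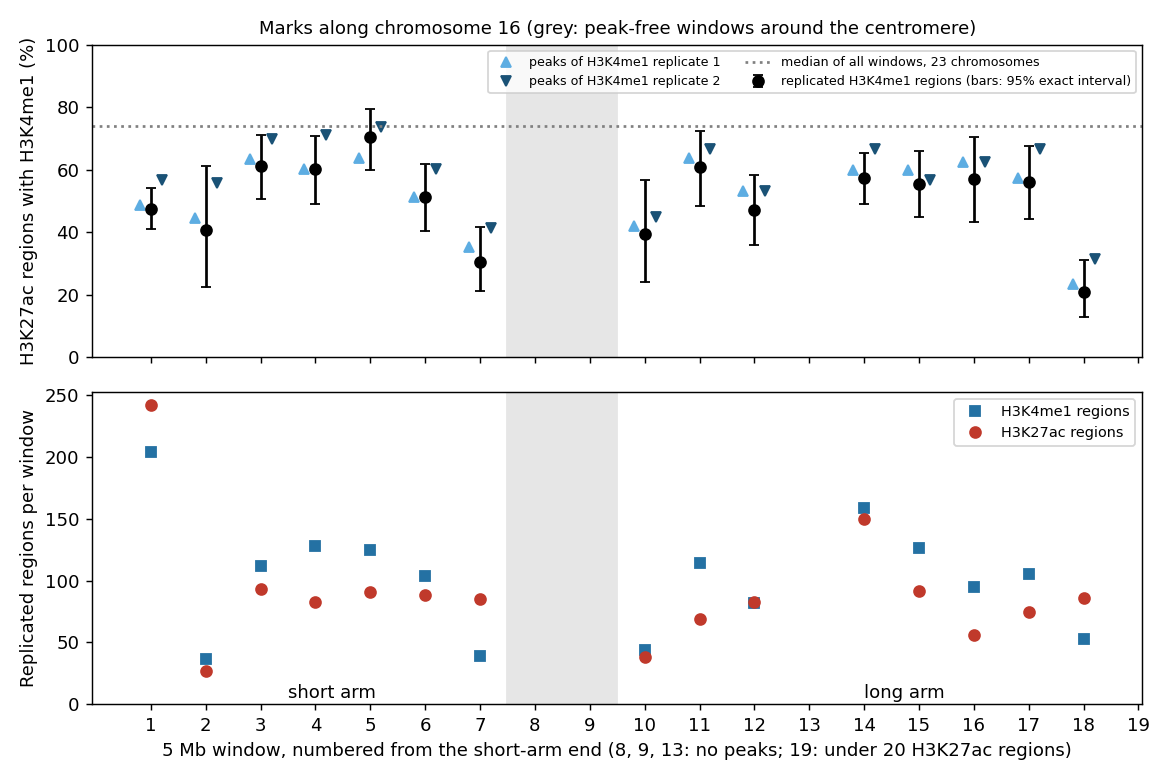
Upper panel, percentage of H3K27ac regions with H3K4me1 in each 5 Mb window of chromosome 16, in order from the short-arm end, with 95% exact intervals and the values from single H3K4me1 libraries. Lower panel, replicated regions of each mark per window. All 15 windows lie under the 73.9% median of all chromosomes, the lowest being window 18 (20.9%) and window 7 (30.6%). The share shown is the one that chose the chromosome.

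The outer end of the long arm had a lower share than the rest of its arm. This end was picked after its window had shown the lowest share, which is also the measure that chose the chromosome, so the difference is a description with no test. In the outermost 5 Mb, 21.3% of 89 H3K27ac regions carried H3K4me1 (13.4 to 31.3%), against 54.0% of 568 in the rest (49.9 to 58.2%). The difference was -32.7 points, and it was -34.0 and -30.4 points with H3K4me1 replicates 1 and 2 alone. H3K4me1 peaks were sparser at the end, with 17.4 and 21.2 per Mb in replicates 1 and 2, against 27.0005 and 30.4 in the rest. H3K27ac peaks numbered 20.8 and 25.2 per Mb there, against 16.7 and 19.8 in the rest. That rest includes the 6.27 Mb stretch without peaks, which lowers its densities. Without the stretch the whole long arm, its end included, had 20.02 and 23.87 H3K27ac peaks per Mb. The end was thus only slightly denser in H3K27ac than the arm trimmed in this way. It remained sparser in H3K4me1, for which the trimmed arm had 30.2 and 34.3 peaks per Mb. On the short arm the outermost 5 Mb gave 47.1% of 244 regions, against 54.4% of 465 in the rest, a difference of -7.28 points. Both marks were denser at that end. H3K4me1 replicates 1 and 2 had 57.0 and 63.0 peaks per Mb, against 27.2 and 28.7 in the rest, and H3K27ac replicates 1 and 2 had 52.0 and 64.6, against 18.7 and 22.8.

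Among 36 arms of the 18 chromosomes cut at their centromere, an outer end with a lower share than the rest of the arm was found in 16. The difference had a median of 0.967 points and a range from -32.7 to 16.1. The long arm of chromosome 16 was the lowest of the 36 and the short arm ranked 7. These ranks are a description with no test, chosen after the windows had been viewed. Without the outer 5 Mb, both arms of chromosome 16 had similar shares, 54.4 and 54.0%.

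**Figure D4:**
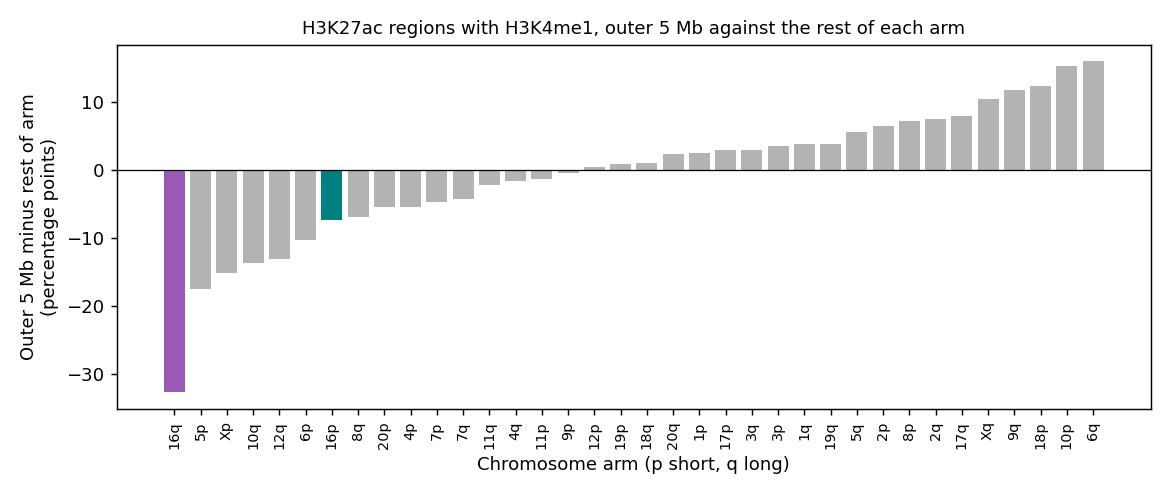
Percentage of H3K27ac regions with H3K4me1 in the outer 5 Mb minus that in the rest of the arm, in percentage points, for 36 chromosome arms ordered by the difference (p short, q long). The long arm of chromosome 16 is at the lower end with -32.7 points, and the short arm is at -7.28.

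Set among 41 arms, with acrocentric chromosomes taken whole, both arms of chromosome 16 were near the low end for H3K4me1 and not for H3K27ac. The short arm had 22.5 H3K4me1 regions per Mb, rank 5 from the lowest, and 21.3 H3K27ac regions per Mb, rank 34. The long arm had 17.9 H3K4me1 regions per Mb, rank 3, and 15.1 H3K27ac regions per Mb, rank 12. The median arm had 30.1 H3K4me1 and 16.7 H3K27ac regions per Mb. In the share of H3K27ac regions with H3K4me1 the long arm ranked 3 and the short arm 4, above both arms of chromosome X (33.6 and 47.7%) and next to the short arm of chromosome 19 (52.5%). The short arm of chromosome 19 had the most H3K27ac of all arms, 36.97 regions per Mb, and 31.6 H3K4me1 regions per Mb. Both arms of chromosome 16 thus had fewer H3K4me1 regions per Mb than that arm, beside far fewer H3K27ac regions. The gap between chromosome 16 and the other chromosomes together was -23.3 points, and -21.8 to -23.3 points with any 1 library left out. Because this share chose the chromosome, the ranks and the gap in it are a description.

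**Figure D5:**
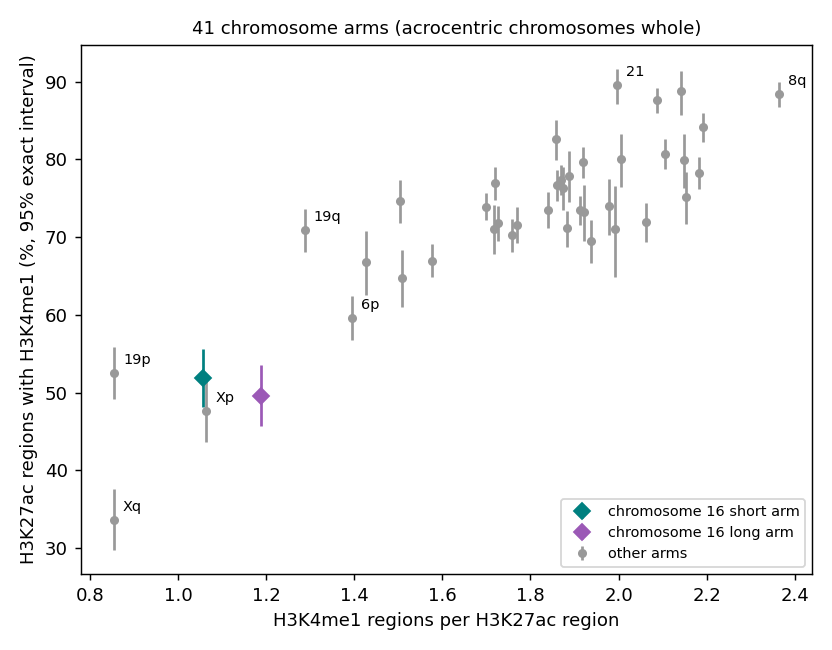
Percentage of H3K27ac regions with H3K4me1 (with 95% exact intervals) against the number of H3K4me1 regions per H3K27ac region for 41 chromosome arms. The short arm (1.06, 51.9%) and the long arm (1.19, 49.6%) of chromosome 16 lie at the lower left beside arms of chromosomes X and 19.

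H3K27ac regions were joined into domains across gaps up to a fixed length between 12 and 13 kb, a usual way to find clustered enhancers. The short arm had 353 domains, or 10.6 per Mb, and the long arm 403, or 9.24 per Mb. With gaps up to 5 kb there were 482 on the short and 485 on the long arm. A domain held a median of 2.14 kb of H3K27ac on the short and 1.62 kb on the long arm, against 1.86 kb on other chromosomes. Single regions made up 52.4% of the short-arm and 62.0% of the long-arm domains, against 61.0% on other chromosomes. At least 10 kb of H3K27ac was held by 14 short-arm domains (3.97%) and 11 long-arm domains (2.73%), against 2.98% of domains over all chromosomes, so neither arm stood far from that level.

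The largest short-arm domain lay from 29800568 to 29829006, with 5 regions and 24.5 kb of H3K27ac, which placed it at rank 56 over all chromosomes. Each H3K27ac library covered 23.6 kb of it, and H3K4me1 replicates 1 and 2 covered 4.48 and 7.26 kb. Replicated H3K4me1 took up 22.6% of its span and H3K27ac 86.3%. The next, from 685059 to 740918, joined 11 regions with 21.4 kb of H3K27ac and had H3K4me1 over 8.87% of its span, the least of the 10 named domains. The others on the short arm began at 19391089 (19.7 kb of H3K27ac, H3K4me1 over 19.9% of the span), 1119794 (17.5 kb, 30.2%) and 753931 (16.9 kb, 15.6%). Thus 3 of the 5 lay within the outer 5 Mb of the arm.

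The largest long-arm domain, from 73080177 to 73106285, had 3 regions with 17.9 kb of H3K27ac (rank 162) and H3K4me1 over 20.7% of its span. H3K27ac replicates 1 and 2 covered 17.8 and 17.3 kb of it and H3K4me1 replicates 1 and 2 covered 3.95 and 5.41 kb. It was followed by a domain from 67438213 to 67516117 with 11 regions, 15.4 kb of H3K27ac and H3K4me1 over 20.9% of the span. Compact domains from 54450628 to 54464684 (12.1 kb of H3K27ac) and from 66536397 to 66552404 (12.04 kb) had much more H3K4me1, 68.7 and 52.6% of the span. The fifth, from 81014218 to 81042265 (11.7 kb), had 16.8%. Among the 5 named domains per arm, H3K4me1 coverage thus ranged from 8.87 to 30.2% on the short arm and from 16.8 to 68.7% on the long arm. With a joining distance of 5 kb, 4 of the 5 largest short-arm and 3 of the 5 largest long-arm domains overlapped those named here.

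The widest H3K27ac region of the chromosome lay on the long arm from 73080177 to 73095382. Its 15206 bp were covered over 15206 and 15001 bp by H3K27ac replicates 1 and 2, and replicated H3K4me1 covered 30.4% of it. On the short arm the widest lay from 29817812 to 29829006 (11195 bp) with H3K4me1 over 13.6%, in the largest domain of that arm. The next on the short arm, from 15067693 to 15077552 (9860 bp) and from 29747434 to 29756879 (9446 bp), had H3K4me1 over 64.7 and 70.8%. Those on the long arm, from 54454285 to 54461482 (7198 bp) and from 58055017 to 58061683 (6667 bp), had 77.8 and 52.5%. These 6 H3K27ac regions thus all carried some H3K4me1.

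Wide H3K27ac regions with no H3K4me1 peak in either library reached 4981 bp. That region lay on the long arm from 54316751 to 54321731, with 4930 and 4969 bp in H3K27ac replicates 1 and 2, and was 3.42 kb from the nearest H3K4me1 peak. It was followed on the long arm by regions from 81037558 to 81042265 (4708 bp, 0.519 kb away) and from 46721573 to 46725703 (4131 bp, 0.053 kb away). On the short arm the widest lay from 18935328 to 18939328 (4001 bp) and was isolated, with the nearest H3K4me1 peak 40.1 kb away. Those from 1358442 to 1361901 (3460 bp) and from 1662380 to 1665791 (3412 bp) had one 0.339 and 0.494 kb away. So 4 of these 6 regions had an H3K4me1 peak of at least 1 library less than 1 kb outside their ends.

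H3K4me1 regions of chromosome 16 were narrower at the top of the list. The widest lay on the short arm from 21523077 to 21528272 (5196 bp), with 4312 and 5107 bp in H3K4me1 replicates 1 and 2 and H3K27ac over 85.5%. It was followed on that arm by regions from 27242720 to 27247796 (5077 bp, 92.8% covered by H3K27ac) and from 1128826 to 1133074 (4249 bp, 100% covered). On the long arm the widest were those from 67492623 to 67497423 (4801 bp, 90.002%), 73083080 to 73087708 (4629 bp, 100%) and 68810831 to 68814827 (3997 bp, 73.5%). The second of these lies inside the widest H3K27ac region of the chromosome. H3K4me1 regions with no H3K27ac peak of either library were shorter. The widest of them on the short arm lay from 4881724 to 4884760 (3037 bp), with 2770 and 2955 bp in H3K4me1 replicates 1 and 2 and H3K27ac 10.96 kb away. On the long arm the widest lay from 58152957 to 58155916 (2960 bp), with H3K27ac 3.53 kb away. The next on the long arm, from 77819149 to 77821478 (2330 bp) and from 49215098 to 49217267 (2170 bp), were far from H3K27ac, at 62.1 and 84.6 kb. Those on the short arm, from 19754288 to 19756088 (1801 bp) and from 11797713 to 11799271 (1559 bp), were 23.9 and 0.33 kb away.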

How the data were processed

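Chromatin immunoprecipitation with sequencing was done by the authors on VCaP cells, with chromatin fixed, sonicated and made into libraries, per the labels' protocols. Reads and peaks were handled with MACS2 2.1.0, Bowtie 1.1.2, Trimmomatic 0.33 and bcl2fastq 2.17 on hg19, per the submitters' processing notes. What each tool did, and the threshold and control for peaks, is not stated there. For each precipitated library the authors deposited a list of peaks with 4 columns (chromosome, start, end, name), so no height or depth is known. Lists differ in their smallest width and joining distance, which changes how many peaks they hold and how wide these are. Nothing states that replicates are separate cultures, so their spread may be technical.

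Autosomes and chromosome X were used, and positions were counted from 1. Libraries and regions were compared in Python 3.11.15 with NumPy 2.4.6 and SciPy 1.17.1. An overlap of 1 bp counted as shared. Windows took regions by their midpoint, and arm length ran between the outermost peaks. Share intervals are exact (Clopper-Pearson) and those of differences Newcombe's (statsmodels 0.14.6). Other arms were cut at the peak-free gap around the centromere, on 17 of 18 chromosomes the largest gap. This departs on chromosome X from the planned cut at the largest gap. Named regions are, per arm, the 5 domains with most H3K27ac, the 3 widest regions of each mark and the 3 widest without the other mark, besides every 5 Mb window with at least 20 H3K27ac regions. The members, tests and lists were chosen with earlier results of these data known. Overlap functions were tested on simulated data. Alternatives left out libraries, changed overlap, joining and width rules and window size. The input library was not analysed here.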

Additional observations from a re-analysis of the deposited data

How the results depend on the processing

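The difference between marks in the arm ratio of width ranged from -0.0864 to 0.0236 when a library was left out, and changed sign without H3K27ac replicate 1 (0.0236) and without H3K4me1 replicate 2 (0.0028). By mean width it was -0.0497 and the marks did not overlap (exact p = 0.333, the smallest possible, beside exact p from 0.5 to 1 under the other alternatives). The arm difference in H3K27ac regions with H3K4me1, whose interval includes 0, also changed sign, to -0.500 points without H3K4me1 replicate 2, and was 4.17 points without H3K4me1 replicate 1. The difference between marks in the arm ratio of density ranged from -0.28 to -0.20 with a library left out. Measuring arm length from the arm limits cannot change it. The short-to-long quotient of H3K4me1 to H3K27ac regions ranged from 0.817 to 0.907 with a library left out. It was 0.820 with the union of peaks and 0.987 with equal numbers of widest peaks (54763 per list). The gap between chromosome 16 and the other chromosomes was -20.4 points with the union of peaks. The cause of these moves was not tested. Arm shares under equal numbers of widest peaks were 27.2% on the short and 24.4% on the long arm for H3K27ac regions with H3K4me1, against 50.8% on other chromosomes. Windows under 50% made up 40% of the 15, and between 20% (without H3K4me1 replicate 1) and 46.7% (without H3K27ac replicate 1) with a library left out. Whether replicate numbers pair the marks is not stated in the labels. Deviations of libraries with 1 number were nearly uncorrelated (r = -0.0527, 22951 windows of 100 kb), which cannot decide it, since a shared culture need not alter peak counts. With the number as a replicate block, the pairs gave short-minus-long differences of 1.22 points for H3K27ac regions with H3K4me1 and 8.61 points for H3K4me1 regions with H3K27ac, and left the means of the arm ratios as they were (exact p = 0.5, the smallest that 2 pairs allow). Depth is unknown, so an absent peak does not show an absent mark.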

Other observations

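In bins of 1 Mb, the low share at the long-arm end was not even. From 89 to 90 Mb, H3K4me1 lay on 2 of 28 H3K27ac regions (7.14%, 0.877 to 23.5%), with 20 and 30 H3K4me1 peaks in replicates 1 and 2 and 32 and 43 H3K27ac peaks. From 88 to 89 Mb it lay on 7 of 19 (36.8%, 16.3 to 61.6%), and from 85 to 86 Mb on 8 of 27 (29.6%, 13.8 to 50.2%). On the short arm beside the centromere, 5 of 23 H3K27ac regions between 31 and 32 Mb carried H3K4me1 (21.7%, 7.46 to 43.7%), with 11 H3K4me1 peaks in each library against 24 and 28 H3K27ac peaks. The bin from 28 to 29 Mb, outside both low windows, had 12 of 34 (35.3%, 19.7 to 53.5%). At the other extreme, from 17 to 18 Mb there were 27 H3K4me1 and 7 H3K27ac regions. These bins were picked after their values were seen.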
